A study of Mus musculus with 6 samples.

Results

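The helper cytokine genes outside the Th9 programme were followed in day 2 Th9 cultures with and without Cul5. They are Il4, Il5 and Il13, which mark Th2 cells, Il3 and Csf2, the growth factors IL-3 and GM-CSF, Il2 and Il21, which signal through the common gamma chain, Ifng, the signature cytokine of Th1 cells, Il31, a cytokine linked to itch, and Areg, an epidermal growth factor receptor ligand. They were chosen by name and are 10 of the 35896 genes with a transcript in the deposited files. All 10 had a count in at least 1 sample, but only Il4, Il5, Il13, Il2 and Ifng were among the 12925 genes with enough counts to be tested.

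The cells were naive CD4+ T cells, isolated on magnetic columns with a naive T cell kit that depletes other cell types, from spleen and lymph nodes of C57BL/6 mice aged 8 to 10 weeks, either Cul5fl/fl (WT, 3 samples) or Cul5fl/fl with CD4-Cre (Cul5 cKO, 3 samples), so both genotypes carried the floxed allele. CD4-Cre is active from a thymocyte stage onwards, before naive T cells leave the thymus, and deletes Cul5 in CD8 as well as CD4 T cells. Both groups were stimulated for 48 h through CD3 (2 µg/ml antibody) and CD28 (1 µg/ml antibody). The Th9 polarizing mix was IL-4 at 20 ng/ml, TGF-β at 2.5 ng/ml and an antibody to IFN-γ at 10 µg/ml. IL-4 protein was therefore in the medium of every culture and IFN-γ protein was blocked, while the measurement is of mRNA. The labels do not say that samples of a group came from separate animals, so p-values measure only the spread between these samples, which may be technical.

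A naive helper T cell makes IL-2 soon after its receptor is engaged, and commits to other cytokines over the following days. In Th2 cells, IL-4 acting through STAT6 raises GATA3, which opens a cluster that holds Il4, Il13 and Il5 side by side, with the Rad50 gene between Il13 and Il5. In Th1 cells, T-bet, encoded by Tbx21, does the corresponding work at Ifng, and TGF-β is a known brake on both programmes. The acute transcription of most of these genes also needs NFAT, a calcium-dependent factor that binds the short sequence GGAAA next to the start site.

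Members lie together on 1 stretch of chromosome 11 of GRCm38, in the order Il4 (chr11:53602982-53618669, minus strand), Il13, Il5, Csf2 and Il3. Il4 and Il13 are 12655 bases apart, Il13 and Il5 86092, Il5 and Csf2 522165, and Csf2 and Il3 15636. Il2 and Il21 are neighbours on chromosome 3, 96800 bases apart. The proximal promoters of the chromosome 11 members and of Il2, the member of highest mean TPM, are shown. Each is the 250 bases before the RefSeq start site in GRCm38.p6, written 5′ to 3′ on the gene's strand, with each GGAAA or its reverse complement TTTCC in capitals. For Csf2 that start site lies upstream of the GENCODE gene used for counts, which starts at 54249667 on the minus strand. The Csf2 window therefore does not adjoin the start of the counted transcript.
Il4 promoter, chr11:53618666-53618915, minus strand: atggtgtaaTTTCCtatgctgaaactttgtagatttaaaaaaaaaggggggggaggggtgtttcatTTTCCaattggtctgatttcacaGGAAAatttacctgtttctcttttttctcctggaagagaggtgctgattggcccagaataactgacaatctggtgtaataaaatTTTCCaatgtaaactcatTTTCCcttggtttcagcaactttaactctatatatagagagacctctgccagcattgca
Il13 promoter, chr11:53634703-53634952, minus strand: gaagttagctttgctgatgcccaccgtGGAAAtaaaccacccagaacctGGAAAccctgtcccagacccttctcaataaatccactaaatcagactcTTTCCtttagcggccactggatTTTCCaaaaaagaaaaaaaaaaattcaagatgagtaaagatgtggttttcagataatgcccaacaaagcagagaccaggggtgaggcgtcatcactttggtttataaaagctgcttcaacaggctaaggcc
Il5 promoter, chr11:53720544-53720793, plus strand: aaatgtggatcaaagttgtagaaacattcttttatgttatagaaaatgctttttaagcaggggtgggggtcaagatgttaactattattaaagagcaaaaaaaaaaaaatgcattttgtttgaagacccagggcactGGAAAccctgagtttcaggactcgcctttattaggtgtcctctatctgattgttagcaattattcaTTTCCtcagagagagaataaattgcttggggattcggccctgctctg
Il3 promoter, chr11:54267280-54267529, minus strand: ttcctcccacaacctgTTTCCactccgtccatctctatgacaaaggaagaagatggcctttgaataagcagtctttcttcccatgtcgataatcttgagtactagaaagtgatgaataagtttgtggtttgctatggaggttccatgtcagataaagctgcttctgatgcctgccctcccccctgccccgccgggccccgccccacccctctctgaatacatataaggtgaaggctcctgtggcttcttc
Csf2 promoter, chr11:54249900-54250149, minus strand: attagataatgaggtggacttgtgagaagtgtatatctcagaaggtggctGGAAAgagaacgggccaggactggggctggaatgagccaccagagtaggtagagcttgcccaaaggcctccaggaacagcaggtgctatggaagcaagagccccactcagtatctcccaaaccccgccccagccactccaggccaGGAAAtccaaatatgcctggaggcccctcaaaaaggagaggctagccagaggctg
Il2 promoter, chr3:37125955-37126204, minus strand: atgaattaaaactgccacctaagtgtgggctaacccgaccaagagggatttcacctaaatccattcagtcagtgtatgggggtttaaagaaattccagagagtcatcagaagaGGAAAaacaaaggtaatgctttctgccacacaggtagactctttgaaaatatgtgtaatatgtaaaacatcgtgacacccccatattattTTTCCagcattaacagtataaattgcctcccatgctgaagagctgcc

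The letters GGAAA on either strand occurred 5 times before Il4, 4 times before Il13, 2 times each before Il5, Csf2 and Il2, and 1 time before Il3. They were found in 9 of the 10 members, all but Il31, and in 55.6% of the 32851 RefSeq promoter entries of the same length. AGATAA or TGATAA, some of the letters bound by GATA factors, occurred before Il13, Il3 and Csf2, 3 of the 10 members, against 16.6% of all entries. The related AGATAG, whose reverse complement CTATCT lies in the Il5 window, was not counted. TGANTCA, the AP-1 motif, occurred before none of the 10, against 6.75% of entries. These matches describe the letters in this window only. For Csf2 the window lies apart from the GENCODE gene whose counts are given, and for Il31 it lies inside that gene.

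WT replicate 3 was shallow, with a total of 3944803 counts, and the other 5 samples held between 23111689 and 23454552. Values are given as counts estimated by kallisto or as CPM, counts scaled to the TMM-normalized library size. A floor of 3 counts is 0.759 CPM in WT replicate 3, where 1 count is 0.253 CPM. In the deep samples the floor was 0.128 to 0.133 CPM. Cul5 fell from 66.2 ± 2.67 CPM in WT to 12.6 ± 1.82 in Cul5 cKO (SD, n = 3), with a fitted log2 fold change of -2.39 (SE 0.115, edgeR quasi-likelihood test, adjusted p = 0.000992). The 8 CD4 T cell markers summed to 1786 to 1848 CPM in WT and 1666 to 1708 in Cul5 cKO. Il9, the cytokine of the polarization, rose from 320.2 ± 30.9 to 851 ± 152 CPM (log2 fold change 1.41, SE 0.134, adjusted p = 0.0112).

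Beside Il9 the helper cytokines were scarce in every sample. Together the 10 members reached 2.05, 11.3 and 7.09 CPM in the WT samples, listed as replicates 1, 2 and 3, and 3.87, 29.8 and 28.2 CPM in Cul5 cKO. Per transcript length, in TPM, Il9 averaged 1304 ± 193 in WT and 3472 ± 544 in Cul5 cKO (SD, n = 3). The highest member by mean level, Il2, had 4.02 ± 3.42 TPM in WT and 7.37 ± 6.43 in Cul5 cKO. Over all 6 samples the order of mean levels was Il2 (5.69 TPM), Il13 (4.37), Il4 (4.14), Il5 (2.75), Il3 (1.64), Ifng (1.61), Csf2 (1.38), Il21 (0.294), Areg (0.0400) and Il31 (0.0283). Within WT, ordered by WT means, neighbours differed by less than the larger of their SDs except Il21 (0.157 ± 0.0994 TPM) and Areg (0.0407 ± 0.0706). Within Cul5 cKO the same held except between Csf2 (2.54 ± 1.90 TPM) and Il21 (0.431 ± 0.458).

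Il5, Il13 and Il2 were listed in the authors' own gene-level table, and the other 7 are known here only from summed transcript counts.

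**Figure D1:**
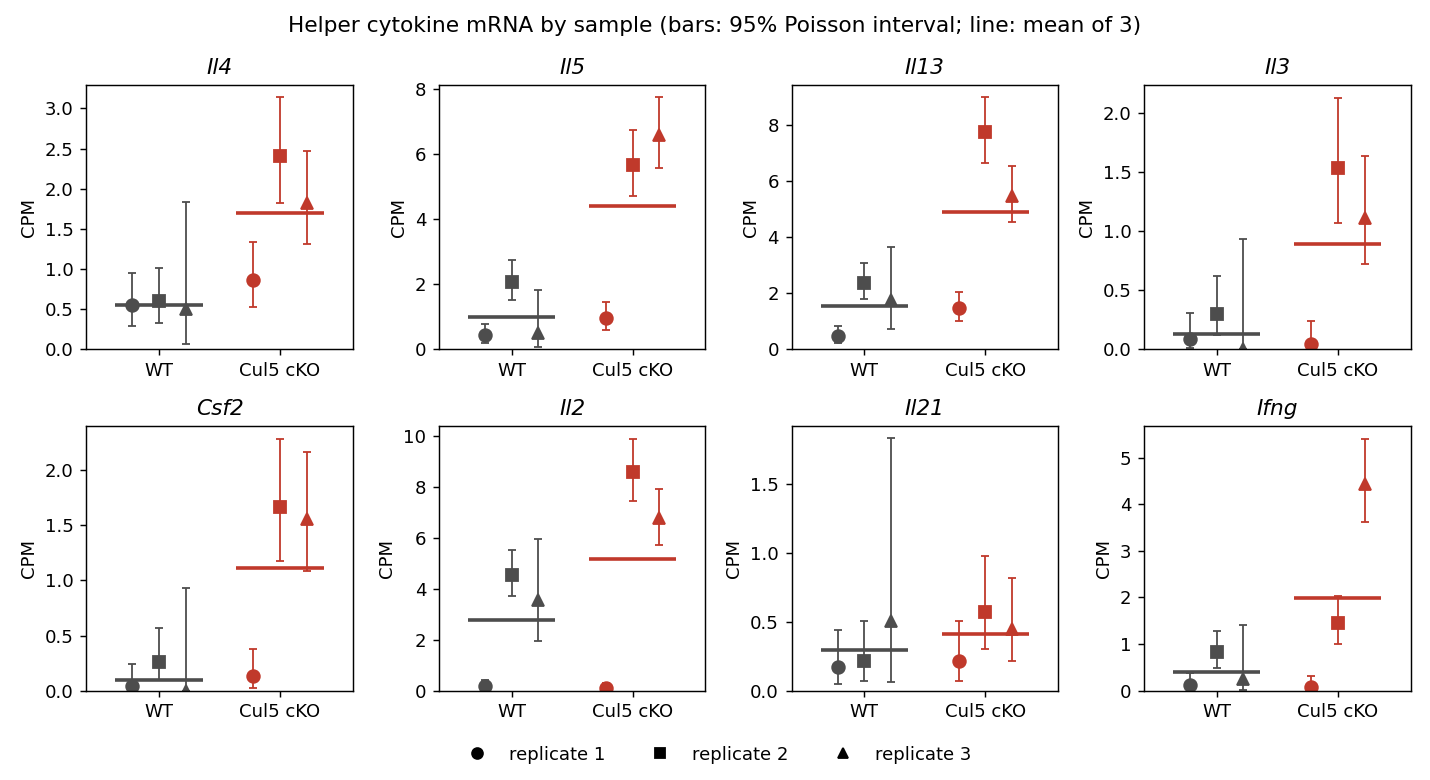
CPM of 8 members in each of the 6 samples, with WT in grey and Cul5 cKO in red, circles, squares and triangles for replicates 1, 2 and 3, a horizontal line at the mean of 3 and bars for the 95% Poisson interval of the count. Replicates 2 and 3 of Cul5 cKO are the highest samples for every gene shown except Il21, as they are for 15.0% of the genes tested in replicates 2 and 3. Replicate 1 of each genotype (circles) is low for Il5, Il13, Il2 and Ifng. WT replicate 3 is also low for Il5 and Ifng, on 2 and 1 counts.

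With all 6 samples in 1 fit, no member was differentially expressed at an adjusted p under 0.05. In this fit 133 of 12925 genes passed (1.03%), 79 of them higher in Cul5 cKO (0.611%) and 54 lower. All 5 members tested had a positive log2 fold change, as had 48.8% of all genes tested, with a median of 1.71 against -0.01 over all genes. At an unadjusted p under 0.05, Il4 and Il5 were higher, and 10.9% of all genes were higher on that criterion. DESeq2 called 6.17% of the genes to which it gave an adjusted p and none of those 5 members. The 5 tested members passed the filter partly through their levels in Cul5 cKO, so their count is not support for a direction.

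Il4, the autocrine cytokine of Th2 cells, was the member whose groups did not overlap. Its counts were 13, 14 and 2 in WT replicates 1, 2 and 3, or 0.555, 0.606 and 0.506 CPM, and 20, 55 and 41 in Cul5 cKO, or 0.869, 2.41 and 1.82 CPM. All 3 Cul5 cKO samples were above all 3 WT samples, which was true of 14.0% of genes tested, and the lowest Cul5 cKO sample was replicate 1. Mean Il4 was 0.556 ± 0.0498 CPM in WT and 1.70 ± 0.778 in Cul5 cKO (SD, n = 3). The fitted log2 fold change was 1.57 (SE 0.445) with an edgeR adjusted p of 0.122. The two-sided exact permutation test gave p = 0.1, the smallest that 3 samples against 3 allow.

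Most Il4 reads of Cul5 cKO replicates 2 and 3 were assigned to another transcript than in the other 4 samples. Il4-201, a protein-coding transcript of 590 bases, was estimated at 0, 6.43 and 0 counts in WT replicates 1, 2 and 3 and at 0, 33.3 and 24.8 in Cul5 cKO. Il4-204, another protein-coding form, had 4.29, 0 and 0 counts in WT and 6.94, 14.2 and 9.21 in Cul5 cKO. Il4-202, which is annotated without a protein, had 8.71, 7.57 and 2 counts in WT and 11.2, 6.00 and 6.95 in Cul5 cKO. Il4-202 thus held most of the Il4 counts in the 3 WT samples and Cul5 cKO replicate 1, and a small part of those in Cul5 cKO replicates 2 and 3. Reads of 50 bases that match several of these transcripts are divided by estimation, so counts this low give only a rough split.

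Il13, which drives mucus and airway responses, and Il5, the eosinophil growth factor, had larger differences with a wider spread. Il13 counts were 11, 55 and 7 in WT replicates 1, 2 and 3 (0.470, 2.38 and 1.77 CPM) and 34, 177 and 123 in Cul5 cKO (1.48, 7.76 and 5.47 CPM). The groups overlapped through replicate 1, since Cul5 cKO replicate 1 lay below WT replicates 2 and 3. The Il13 log2 fold change was 1.71 (SE 0.740, edgeR adjusted p = 0.238, exact permutation p = 0.3).

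Il5 counts were 10, 48 and 2 in WT replicates 1, 2 and 3 (0.427, 2.08 and 0.506 CPM) and 22, 129 and 148 in Cul5 cKO (0.955, 5.65 and 6.58 CPM). Again Cul5 cKO replicates 2 and 3 were above every WT sample, and Cul5 cKO replicate 1 was below WT replicate 2. The Il5 log2 fold change was 1.97 (SE 0.827, edgeR adjusted p = 0.229, exact permutation p = 0.2). The 2 counts in WT replicate 3 are below the floor, so that sample sets no level for Il5.

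Il3 and Csf2, which support mast cells, basophils and myeloid cells, were not tested in the fit of all 6 samples because too few samples had counts. Il3 had 2, 7 and 0 counts in WT replicates 1, 2 and 3 and 1, 35 and 25 in Cul5 cKO, or 0.0434, 1.53 and 1.11 CPM in Cul5 cKO. The 0 in WT replicate 3 allows up to 0.759 CPM, and WT replicate 1 and Cul5 cKO replicate 1 were both at or under the floor. Csf2 had 1, 5.59 and 0 estimated counts in WT and 3.49, 37.8 and 35.0 in Cul5 cKO, or 0.130, 1.67 and 1.56 CPM in Cul5 cKO. Cul5 cKO replicates 2 and 3 stood above the other samples for both genes, and Cul5 cKO replicate 1 did not. With no filter beyond 1 count, the log2 fold change was 2.37 for Il3 (adjusted p = 0.313) and 3.02 for Csf2 (adjusted p = 0.183) by edgeR.

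Il2, the T cell growth factor whose receptor feeds the JAK and STAT5 pathway, varied more between replicates than between genotypes. Its counts were 4.06, 105 and 13.5 in WT replicates 1, 2 and 3 (0.171, 4.54 and 3.54 CPM) and 2.04, 196 and 152 in Cul5 cKO (0.0869, 8.59 and 6.76 CPM). Replicate 1 was close to 0 in both genotypes and the other 4 samples were not, with both Cul5 cKO samples above both WT samples. The log2 fold change over 6 samples was 0.97 with an SE of 1.30 (edgeR adjusted p = 0.703, exact permutation p = 0.6). Its 3′ end overlaps Adad1 on the opposite strand, which had 0 to 11 counts per sample, and 15.4% of the 31-base words of the Il2 transcript also occur in transcripts of 132 other genes. The share of such words was 23.8% for Il5-201, 16.55% for Ifng-201, 9.22% for Csf2-201 and 0 for Il13-201 and Il3-201.

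Il21, made by follicular helper cells, stayed near the floor. It had 4.06, 5.05 and 2 estimated counts in WT replicates 1, 2 and 3 and 5.05, 13.1 and 10.1 in Cul5 cKO, or 0.171, 0.216 and 0.506 CPM against 0.217, 0.570 and 0.445 CPM. The groups overlapped, the WT replicate 3 value rests on 2 counts, and a difference was not detectable at this depth (exact permutation p = 0.4).

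Ifng had 3, 19 and 1 counts in WT replicates 1, 2 and 3 (0.128, 0.822 and 0.253 CPM) and 2, 33 and 100 in Cul5 cKO (0.0869, 1.45 and 4.45 CPM). Cul5 cKO replicate 3 was 3 times or more above every other sample, and Cul5 cKO replicate 1 was the lowest of the 6. The log2 fold change was 2.15 (SE 1.19, edgeR adjusted p = 0.347, exact permutation p = 0.5), and without Cul5 cKO replicate 3 it was 0.79 (adjusted p = 0.815). Cul5 cKO replicate 3 also held the most Cd8a, the CD8 co-receptor, at 6.27 CPM against 0.565 to 1.71 CPM in the other samples. The 4 CD8 and gamma delta T cell markers found in the files, of 6 listed, summed to 17.4 CPM there, 10.1 to 12.8 in WT and 9.73 and 14.5 in the other Cul5 cKO samples, with Gzmk at 0 to 1 counts. Of these only Cd8a stood apart in Cul5 cKO replicate 3. Cd8b1 was at 5.38 CPM there, against 5.45 and 5.31 in WT replicates 2 and 3. Trdc was at 5.78 CPM, against 8.06 in Cul5 cKO replicate 2. The part of CD8 or gamma delta T cells in the Ifng value was not tested.

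Il31 had a single count, in Cul5 cKO replicate 2, and Areg 2 counts in WT replicate 2 and 2 in Cul5 cKO replicate 2. Every sample was at or under the floor for both genes, so no fold is given, and expression under 0.133 CPM would not have been detected in the 5 deep samples.

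Replicate 1 stood apart in both genotypes for Il2 and Il13, in Cul5 cKO also for Il5 and Ifng, and not for Il9. In WT, Il2 was 25.7-fold higher in replicates 2 and 3 summed than in replicate 1 (95% counting interval 9.79 to 96.0), and in Cul5 cKO 88.4-fold (24.3 to 733). For Ifng the folds were 5.77 (1.71 to 30.3) and 33.8 (9.17 to 282), for Il5 4.33 (2.17 to 9.57) and 6.40 (4.14 to 10.4), and for Il13 4.88 (2.55 to 10.3) and 4.48 (3.14 to 6.60). In WT the Il5 and Ifng folds rested mainly on replicate 2, at 2.08 and 0.822 CPM. WT replicate 3 had 2 counts of Il5 and 1 of Ifng, or 0.506 and 0.253 CPM. Il4 differed less, with 1.06 (0.480 to 2.41) in WT and 2.44 (1.50 to 4.17) in Cul5 cKO. Il9 was at 0.861 (0.835 to 0.888) and 1.25 (1.23 to 1.27). These intervals cover counting error only.

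On the log2(CPM + 0.1) scale, replicate 1 was more than 1 below the mean of replicates 2 and 3 in both genotypes for Il5, Il13, Il2 and Ifng, 4 of the 5 tested members, against 0.975% of all genes tested. For Il5 and Ifng the WT part of this gap rested mainly on WT replicate 2. The labels give no batch, so what sets replicate 1 apart is not known from them, and fewer cytokine-producing cells and less mRNA per cell cannot be told apart in bulk RNA. Ccl3, a chemokine of activated T cells and the gene nearest to Il2 in pattern, shared the gap, with 0.0854, 2.42 and 1.77 CPM in WT replicates 1, 2 and 3 and 0, 5.78 and 4.31 in Cul5 cKO.

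**Figure D2:**
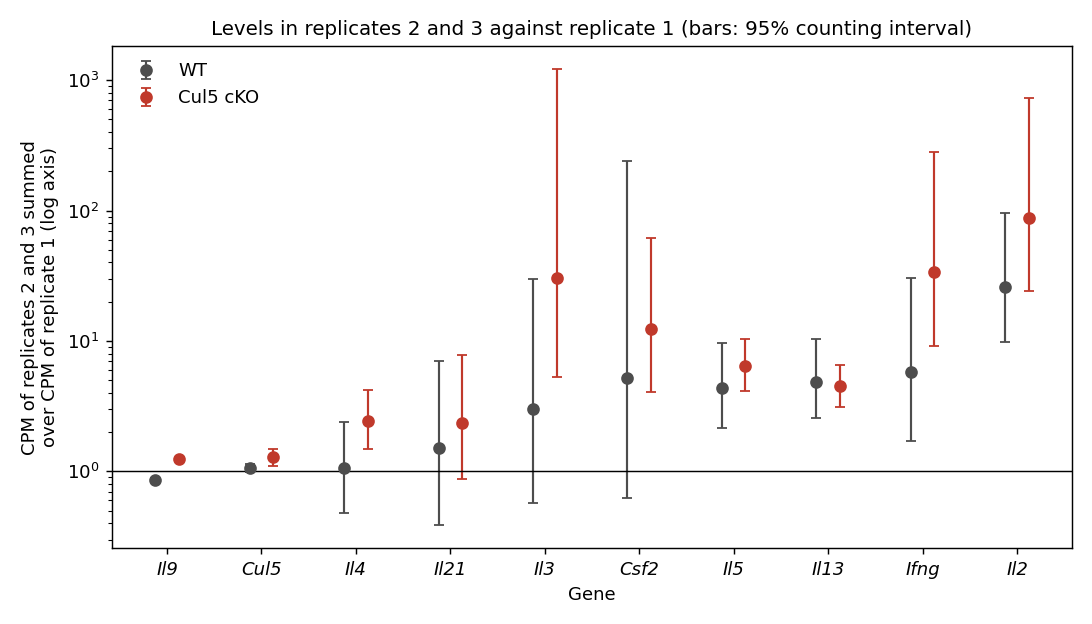
Ratio of the CPM of replicates 2 and 3 summed to that of replicate 1, on a log axis, for Il9, Cul5 and 8 members in WT (grey) and Cul5 cKO (red), with bars for the 95% interval from counts. Il9 and Cul5 lie close to 1, while Il2 lies at 25.7 in WT and 88.4 in Cul5 cKO.

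Comparisons within replicate 1 and within replicates 2 and 3 were therefore made separately. In replicate 1 alone, which has 1 sample per genotype and no replicate check, Il13 was 3.14-fold higher in Cul5 cKO (95% counting interval 1.56 to 6.88), Il5 2.24-fold (1.02 to 5.29) and Il4 1.56-fold (0.741 to 3.42). The counts of Il3, Csf2, Il2 and Ifng in replicate 1, from 1 to 4, were too few for a comparison.

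In replicates 2 and 3 alone, with 2 samples per genotype, edgeR called 1153 of 13055 genes (8.83%), 572 of them higher in Cul5 cKO (4.38%). Of the 8 members tested there, 4 were called, all higher. Csf2 had a log2 fold change of 2.91 (adjusted p = 0.0429), Il5 1.92 (adjusted p = 0.0496), Il4 1.86 (adjusted p = 0.0451) and Il13 1.59 (adjusted p = 0.0349). WT replicate 3 had 2 counts each of Il4 and Il5, under the floor, so their WT level rested mainly on WT replicate 2. Il3, with 2.42, and Il2, with 0.87, both missed the threshold at an adjusted p of 0.0675, as did Ifng with 2.11 (adjusted p = 0.103) and Il21 with 0.86 (adjusted p = 0.391).

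In those 4 samples Il4, Il5, Il13, Il3, Csf2, Il2 and Ifng were each higher in both Cul5 cKO samples than in both WT samples, which was true of 31.7% of the genes tested there. Il3, Csf2 and Il21 passed the filter in this fit and not in the fit of 6 samples. Il3 and Csf2 passed it through Cul5 cKO, where they are high, since WT replicates 2 and 3 had 7 and 0 counts of Il3 and 5.59 and 0 of Csf2, so the number of members called is not support for a direction. With all 6 samples and the difference between replicate 1 and the others as a term, Il13 (log2 fold change 1.61, adjusted p = 0.0115) and Il5 (1.72, adjusted p = 0.0294) were called, Il4 was at an adjusted p of 0.0502, and 13.1% of all genes were called, 7.17% higher.

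**Figure D3:**
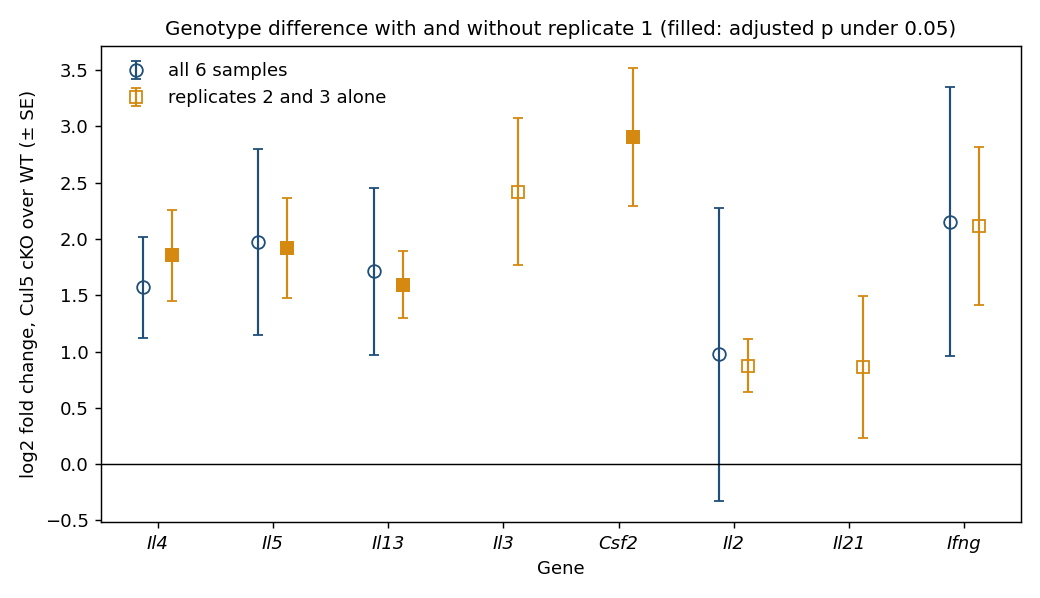
Log2 fold change of Cul5 cKO over WT with its SE from edgeR, for all 6 samples (blue circles) and for replicates 2 and 3 alone (orange squares), filled where the adjusted p is under 0.05. No circle is filled, 4 squares are (Il4, Il5, Il13 and Csf2), and the SE of Il2 falls most between the 2 fits.

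Cul5 cKO replicate 2 held markers of basophils and mast cells, which are also known to make IL-4 and IL-13. The 8 mast cell and basophil markers summed to 0.769, 2.42 and 3.04 CPM in the WT samples and, in Cul5 cKO, to 0.869 CPM in replicate 1, 55.6 in replicate 2 and 3.33 in replicate 3. Every marker of this list was highest in Cul5 cKO replicate 2, among them the basophil protease Mcpt8 at 9.86 CPM against 0 to 0.356 CPM elsewhere, Cpa3 at 13.8 against 0.216 to 0.311, and Gata2 at 16.3 against 0.0434 to 0.845. Mcpt4, a mast cell protease, had 1 count in all. The sum of the 6 myeloid markers was also highest in that sample, at 18.8 CPM against 5.69 to 10.7 elsewhere. The sum of the 8 NK, NKT and innate lymphoid markers was highest there too, at 29.2 against 5.55 to 12.9. Not every marker followed its sum. Itgam was higher in WT replicates 2 and 3 than in Cul5 cKO replicate 2, where the other myeloid markers were highest. Il1rl1, Fcer1g, Tyrobp and Eomes were highest in that sample, but Klrd1 and Klrb1c were lower there than in every WT sample. Ncr1, which defines NK cells, was at 0 throughout.

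In Cul5 cKO replicate 3 the mast cell and basophil list summed to 3.33 CPM. Of this list, Kit alone had 1.69 and 2.28 CPM in WT replicates 2 and 3, and 0.934 in Cul5 cKO replicate 3. Ms4a2 was at 0.667 CPM in Cul5 cKO replicate 3, against 0 to 0.130 in WT and Cul5 cKO replicate 1. Gata2 was at 0.845 CPM, against 0.0434 to 0.506 in those samples. Cul5 cKO replicate 3 had 1.82 CPM of Il4, 5.47 of Il13, 1.11 of Il3 and 1.56 of Csf2, each above all 3 WT samples. Its 6 B cell markers summed to 50.2 CPM, against 15.7 to 19.8 in WT and 6.86 and 10.6 in the other Cul5 cKO samples. Without Cul5 cKO replicate 2, the log2 fold changes over the remaining 5 samples were 1.24 for Il4 (adjusted p = 0.274), 1.77 for Il5 (adjusted p = 0.414), 1.22 for Il13 (adjusted p = 0.486), 0.38 for Il2 (adjusted p = 0.924) and 2.35 for Ifng (adjusted p = 0.441), by edgeR. With replicate 1 as a term and that sample left out, only Il13 was called (log2 fold change 1.45, adjusted p = 0.0444), where 5.60% of all genes were called, 3.03% higher, and Il5 (1.76, adjusted p = 0.0767) and Il4 (1.22, adjusted p = 0.137) were not. The isolation of naive CD4+ T cells is meant to remove basophils, myeloid cells and B cells before culture, and the part of such cells in the cytokine values was not tested beyond these values.

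**Figure D4:**
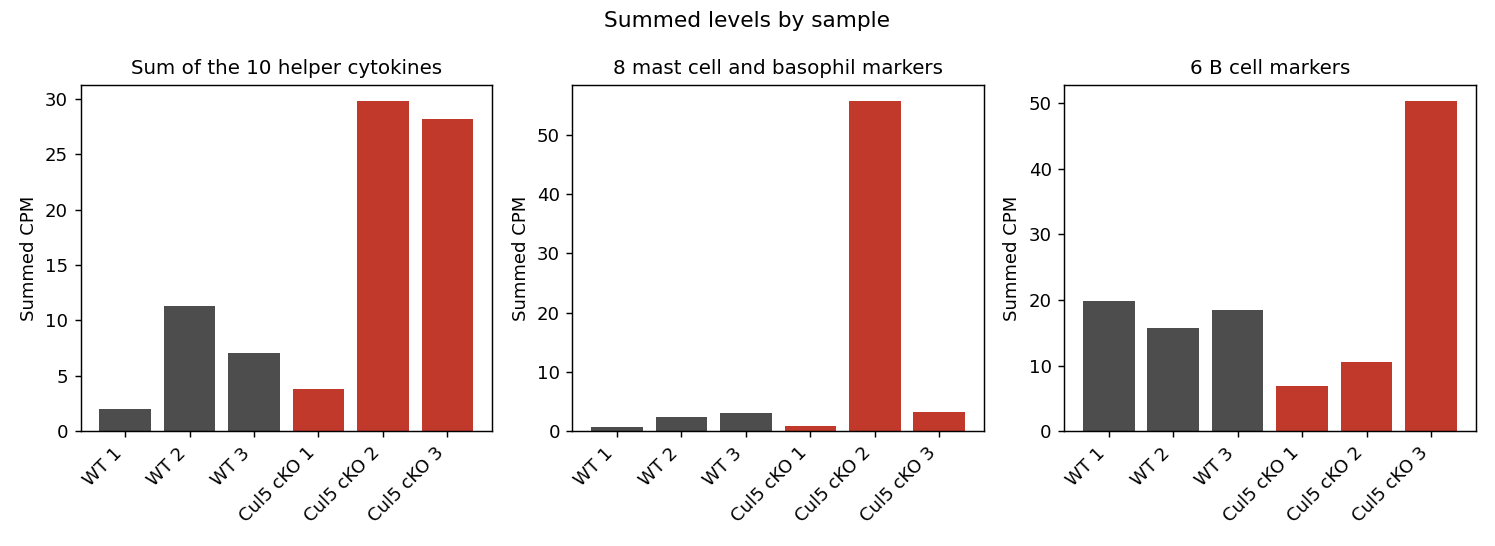
Summed CPM per sample of the 10 helper cytokines (left), of 8 mast cell and basophil markers (middle) and of 6 B cell markers (right), with WT in grey and Cul5 cKO in red. The cytokine sum is similar in Cul5 cKO replicates 2 and 3 (29.8 and 28.2 CPM), the basophil list stands out in replicate 2 (55.6 CPM) and the B cell list in replicate 3 (50.2 CPM).

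Acsl6 was the single neighbour of a member to be called. Of 40 other protein-coding genes that lie within 150000 bases of a member or are its nearest on either side, 19 were tested, 1 was called higher and none lower by edgeR, 3 were higher and 1 lower at an unadjusted p under 0.05, and their median log2 fold change was 0.01. Rad50, a DNA repair gene which lies between Il13 and Il5, had 91.8 ± 8.96 CPM in WT and 92.6 ± 9.66 in Cul5 cKO (SD, n = 3, log2 fold change 0.01). Kif3a, 1015 bases from Il4, had a log2 fold change of 0.38 (adjusted p = 0.253), and Irf1, on the other side of Il5, of -0.05 (adjusted p = 0.914).

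Acsl6, which encodes an acyl-CoA synthetase and lies 36521 bases beyond Il3, had 4.95, 4.98 and 5.57 CPM in WT replicates 1, 2 and 3 and 12.0, 17.3 and 13.9 in Cul5 cKO. All Cul5 cKO samples were above all WT samples, and replicate 1 did not stand apart. Its log2 fold change was 1.50 (SE 0.171, edgeR adjusted p = 0.0159), and 1.60 in replicates 2 and 3 alone (adjusted p = 0.0134).

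**Figure D5:**
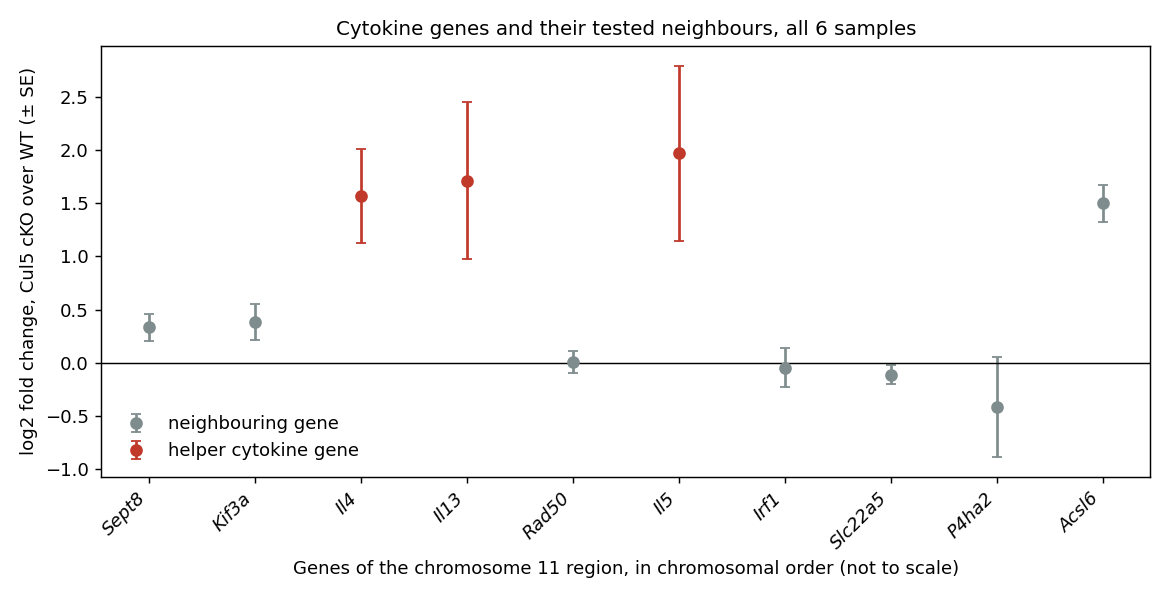
Log2 fold change of Cul5 cKO over WT with its SE, from edgeR on all 6 samples, for Il4, Il13 and Il5 (red) and the tested neighbours of the chromosome 11 members (grey), in chromosomal order and not to scale. Acsl6 lies at 1.50 with a smaller SE than Il4, Il13 or Il5, and Rad50, between Il13 and Il5, lies at 0.01.

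The transcription factors known to open these loci were read from lists. Among 11 tested Th2 regulators, 1 was called higher and none lower by edgeR, 2 were higher and 1 lower at an unadjusted p under 0.05, and the median log2 fold change was 0.11, against -0.01 over all genes. The one called was Maf, which drives Il4 and Il21 transcription, at 31.7 ± 5.57 CPM in WT and 66.0 ± 3.81 in Cul5 cKO (SD, n = 3, log2 fold change 1.07, adjusted p = 0.0185). Gata3 had 74.9 ± 3.38 CPM in WT and 67.0 ± 2.87 in Cul5 cKO (log2 fold change -0.16, adjusted p = 0.232), and Stat6 a log2 fold change of 0.09 (adjusted p = 0.564).

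Of 7 tested Th1 regulators none was called in either direction by edgeR, with 1 higher and 2 lower at an unadjusted p under 0.05. Tbx21 was nearest to Ifng in pattern and low, at 1.09 ± 0.698 CPM in WT and 2.97 ± 2.06 in Cul5 cKO (log2 fold change 1.43, adjusted p = 0.317). None of 12 tested brakes on helper cytokine genes was called, with 1 higher and 1 lower at an unadjusted p under 0.05, and Bcl6, the repressor of follicular helper cells, had a log2 fold change of -0.25 (adjusted p = 0.515).

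Of 13 tested receptor genes for these cytokines none was called, with 1 higher and none lower at an unadjusted p under 0.05. The higher one, Csf2rb2, rested on Cul5 cKO replicate 2, at 22.3 CPM against 0.427 to 1.33 in the other samples. Il4ra stood at 603 ± 99.0 CPM in WT and 507 ± 116 in Cul5 cKO (log2 fold change -0.25, adjusted p = 0.454) and Il2ra, a component of the high-affinity IL-2 receptor, at 1470 ± 107 and 1680 ± 159 (log2 fold change 0.19, adjusted p = 0.257).

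Among 16 tested genes for other secreted T cell cytokines, 4 were called higher and none lower by edgeR (7 and 1 at an unadjusted p under 0.05). Of all genes tested, 0.611% were called higher, and 10.9% were higher at an unadjusted p under 0.05. The log2 fold changes of the list had a median of 0.48, against -0.01 over all genes. The list was chosen with earlier results of these data known, so its counts are not a test of enrichment. Besides Il9 the genes called were Il24 (log2 fold change 3.41, adjusted p = 0.0105), Lta, lymphotoxin alpha (1.28, adjusted p = 0.0164), and Lif, the leukaemia inhibitory factor (0.89, adjusted p = 0.0170). Of the 3 tested genes for the EGF family and its protease, Hbegf, another ligand of the receptor that binds amphiregulin, was called at 12.2 ± 1.15 CPM in WT and 26.4 ± 5.61 in Cul5 cKO (log2 fold change 1.10, adjusted p = 0.0402), while Areg itself had 4 counts in all.

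The genes nearest to each tested member in their pattern over the 6 samples were found by the root mean square distance of mean-centred log2 CPM among 11614 genes. For Il4 they were Smim3 (0.193) and Lonrf1 (0.208), for Il13 the scavenger receptor Cd36 (0.310) and the stress-response factor Atf3 (0.362), and for Il5 the urokinase receptor Plaur (0.474) and Atf3 (0.502). For Il2 they were the chemokines Ccl3 (0.170) and Ccl1 (0.387), and for Ifng, with the loosest match, Tbx21 (0.652) and Il5 (0.657). Atf3 showed the shape shared by Il13 and Il5, with 2.18, 7.70 and 5.57 CPM in WT replicates 1, 2 and 3 and 7.90, 23.5 and 31 in Cul5 cKO. In each genotype its lowest value was in replicate 1.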

How the data were processed

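RNA of 3 WT and 3 Cul5 cKO samples was sequenced as poly-A libraries (single-end, 50 bp). Per the labels, the authors estimated counts and TPM for each transcript with kallisto 0.46.2. They also deposited a gene-level table of 11242 entries holding TMM-normalized log2 CPM (edgeR 3.34.0), and fold changes and p-values of their own that were not used here. The estimated counts were not normalized by the authors.

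Transcripts were summed by gene with GENCODE vM21 for GRCm38, which matched 116640 of 119414 transcripts (97.7%). The sums were rounded, filtered with edgeR's default expression filter, normalized by TMM and tested with edgeR's quasi-likelihood test (edgeR 4.0.16, R 4.3.3) with Benjamini-Hochberg adjustment over all genes tested, at a threshold of 0.05. The scripts were tested on simulated data. Exact permutation tests used log2(CPM + 0.1). Intervals are exact and at 95%. Promoter sequences came from RefSeq (GRCm38.p6), and words of 31 bases were searched in GENCODE transcripts, of either strand.

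Genes were named by a rule: the members, Cul5 and Il9, the 2 genes nearest to each tested member in pattern among those of mean CPM 1 or more, neighbours within 150000 bases when nearest or called, and list genes when called, with Gata3, Stat6, Maf, Tbx21, Bcl6, Il4ra and Il2ra always. Csf2rb2 and the cell type markers were named outside this rule. Members and lists were chosen with earlier results of these data known. The alternatives were DESeq2 1.42.0, DESeq2 size factors, other filters, limma 3.58.1 on log2 CPM and log2 TPM, an unadjusted criterion, thinned counts, replicate number or replicate 1 as a term, replicates 2 and 3 alone and each sample left out.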

Additional observations from a re-analysis of the deposited data

How the results depend on the processing

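No change of direction was seen for Il4, Il5, Il13, Il2 or Ifng under any alternative that gave a value. Their log2 fold changes ranged from 1.11 to 1.89 for Il4, 1.29 to 3.28 for Il5, 1.18 to 2.53 for Il13, 0.31 to 2.04 for Il2 and 0.79 to 3.65 for Ifng, and their adjusted p from 0.0451 to 0.383, 0.0294 to 0.521, 0.0115 to 0.549, 0.0675 to 0.945 and 0.103 to 0.815. The count of members called, 0 in all 6 samples, was 2 with the replicate block (Il5, adjusted p = 0.0490, and Il13, adjusted p = 0.0138, by edgeR), 2 with replicate 1 as a term, 4 in replicates 2 and 3 alone, 2 at an unadjusted p under 0.05 and 1 with replicate 1 as a term and without Cul5 cKO replicate 2, an alternative chosen after seeing the data. It stayed at 0 (range 0 to 0) when each sample was left out in turn.

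The count of genes called, 133, was 757 by DESeq2, 228 with no filter beyond 1 count, 4 by limma on the authors' log2 CPM, 4 on log2(TPM + 1), 5 on log2(TPM + 0.1), 848 with the replicate block, 1688 with replicate 1 as a term, 1153 in replicates 2 and 3 alone, 746 with replicate 1 as a term and without Cul5 cKO replicate 2, and 2753 at an unadjusted p under 0.05. It ranged from 2 to 316 when 1 sample was left out, with 316 when WT replicate 1 was omitted, 2 when either WT replicate 2 or WT replicate 3 was, 45 when Cul5 cKO replicate 2 was and 3 when Cul5 cKO replicate 3 was. The cause was not tested.

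The replicate numbers paired the samples only in part. The deviations of same-numbered samples correlated at 0.370, 0.206 and 0.0245 across genes for numbers 1, 2 and 3. The value for number 1 was the highest between any WT and any Cul5 cKO sample. WT replicate 2 correlated almost as well with Cul5 cKO replicate 3 (0.201) as with replicate 2. WT replicate 3 correlated best with Cul5 cKO replicate 2. A minimum of 10 counts in every sample left no member to test. The 3944803 counts of WT replicate 3 limit every low member, since 0.759 CPM there is the floor.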
